A study of Mus musculus with 39 samples.

Results

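The cadherins and protocadherins described here are 46 of the 12393 genes that the Affymetrix MOE430A array names by a single symbol. They are all genes whose symbol starts with Pcdh, or with Cdh followed by a digit, apart from Pcdhb9. Each gene is represented by its brightest probe set over 39 arrays, a probe set being the group of array oligonucleotides that reports on 1 transcript. The members comprise 5 type I cadherins, 8 type II cadherins, 4 atypical cadherins, 8 non-clustered protocadherins and 21 clustered beta protocadherins. Of the genes, 10 have further probe sets, which bring the family to 58 probe sets, and 6 more probe sets name several alpha protocadherins each and were not members. No probe set with a single symbol represents Pcdh9 or Pcdh17.

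RNA was taken from the inferior colliculus, a midbrain hub of the hearing pathway, of 39 untreated mice of the inbred strain CBA/CaJ, with 1 array per mouse. Hearing status divided them into young controls, of which there were 8, then 17 middle-aged animals whose hearing was good, 9 animals with mild and 5 with severe presbycusis, the loss of hearing with age. Females numbered 4, 10, 4 and 4 in these groups, and males 4, 7, 5 and 1. All mice were bred in one vivarium from purchased breeders, and the labels name no mutation, transgene or drug in any group. Ages in months were not used here.

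Cadherins are membrane proteins that hold cells together through calcium-dependent binding of like to like. Type I and type II cadherins anchor to the actin skeleton through catenins and help neurons to sort, to choose partners and to form synapses. Clustered protocadherins are made in different combinations by single neurons, which gives each neuron a surface identity. Non-clustered protocadherins act in axon growth and in the remodelling of synapses, and Cdh23 and Pcdh15 form the tip links of inner ear hair cells.

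The median intensity per array ranged from 150 to 224 array units. Midbrain marker genes were measured for 4 of the 5 listed, and their summed intensity was between 2057 and 4909 on every array. Summed intensities of 10 cerebellar marker genes reached 36113 in young replicate 2, 25198 in middle-aged replicate 7 and 6969 in middle-aged replicate 8, against at most 5058 on the other arrays. These 3 arrays stand apart, so the main results that rest on them are given with and without them. The arrays report on the whole tissue, in which fewer cells of a type and less RNA per cell cannot be told apart.

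No cadherin or protocadherin passed the test between any pair of hearing groups. Differences are on the scale of log2(intensity + 16), fitted with limma with sex as a covariate, and a member passes when its p-value, adjusted by Benjamini-Hochberg over 22626 probe sets, is under 0.05. Of all probe sets, 0.00442% passed between middle-aged mice and young controls, 0.168% between mild presbycusis and young controls, and 0.53% between severe presbycusis and young controls. Mild presbycusis set against middle-aged mice gave 0.11%, severe presbycusis set against middle-aged mice gave 0.486%, and severe against mild presbycusis gave 0%. The limma F-test across the 4 groups called 0 of the 46 members and 0.53% of all probe sets. A family of 46 at such rates would hold few or no called genes, so the count of 0 does not set it apart.

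At an unadjusted p under 0.05 the members numbered 4 for middle-aged mice, 9 for mild and 7 for severe presbycusis, each against young controls. The same limma threshold was passed by 5.09%, 6.61% and 7.66% of all probe sets in these comparisons. Against middle-aged mice, 5 members fell under that p in mild presbycusis (4.11% of all probe sets) and 3 in severe presbycusis (5.91%), and 3 did between severe and mild presbycusis (3.73%). The F-test had 7 members under it, against 5.89% of all probe sets. The 9 members of the mild comparison are 19.6% of the family, and the 7 of the severe comparison are 15.2%. Without young replicate 2, which had cerebellar signal, the members under that p numbered 5 in the mild comparison and 3 in the F-test. Without all 3 arrays with cerebellar signal the F-test had 4. The shares of all probe sets in these settings were not counted. The 3 comparisons with young controls share these mice and are not independent of each other.

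The median difference of the members from young controls was 0.03 in middle-aged mice, 0.10 in mild presbycusis and -0.01 in severe presbycusis. Over all probe sets the medians were 0.00, 0.03 and -0.03 in the same order. Members above 0 numbered 24, 30 and 22 of 46 in that order, and 49.7%, 57.1% and 44.5% of all probe sets were above 0. The median of the family thus lay close to that of all probe sets in these comparisons, although the share of members at an unadjusted p under 0.05 was larger. Against middle-aged mice, 67.4% of members were above 0 in mild presbycusis (60.2% of all probe sets) and 56.5% in severe presbycusis (43.7%). Between severe and mild presbycusis 43.5% of members were above 0, against 38% of all probe sets. In 20 of the 46 genes the mean of the probe set lay among the dimmest 40% on the array, where signal near background limits what can be seen.

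**Figure D1:**
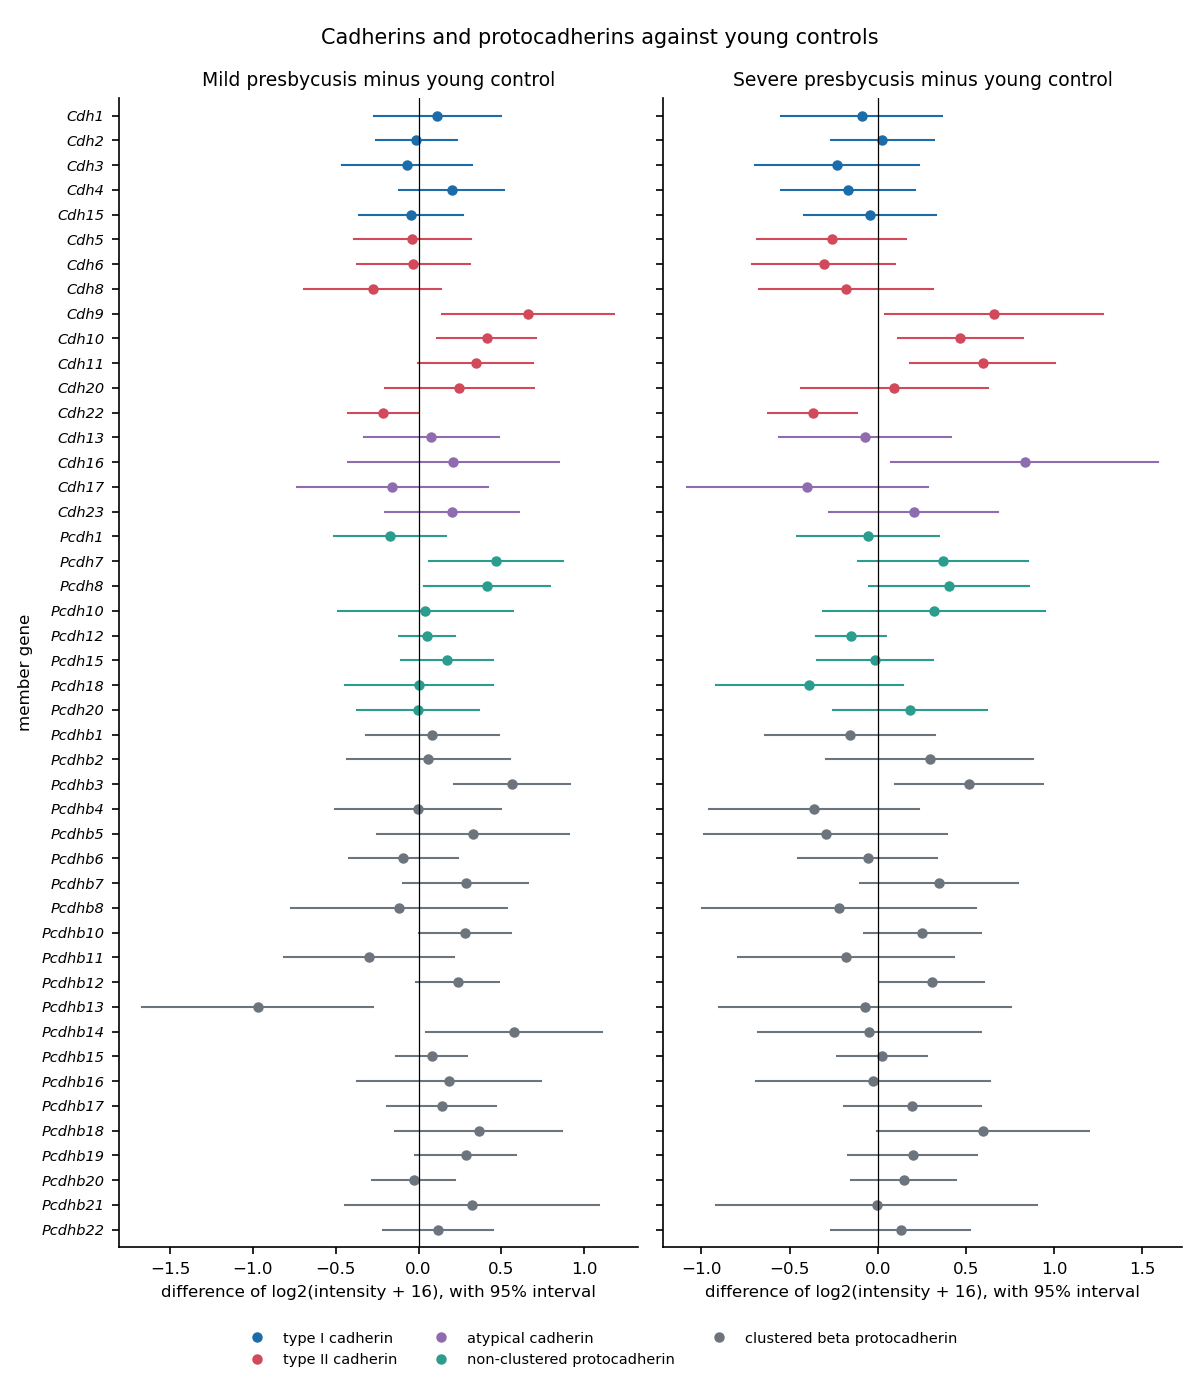
Difference in log2(intensity + 16) of each of the 46 members in mild (left) and severe (right) presbycusis from young controls, with 95% intervals from limma, coloured by class; the 2 panels have different horizontal scales. Most intervals span 0, and those of Cdh9, Cdh10 and Pcdhb3 lie above 0 in both panels although no member passed the adjusted test.

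Among the type I cadherins, the classical family, 0 of 5 passed in any group comparison and none had an unadjusted limma p under 0.05 against young controls. Cdh2 encodes N-cadherin, the main classical cadherin of neurons and their synapses. Its lowest, median and highest intensities were 1494, 2161 and 2540.45 in young controls, and 1766, 2087 and 2679 in middle-aged mice. They were 1262, 2065 and 2654 in mild presbycusis, and the 5 mice with severe presbycusis had 1563, 1801, 2259, 2359 and 2559.85. The ranges of all 4 groups overlapped. The difference from young controls was 0.04 in middle-aged mice (SE 0.11), -0.01 in mild presbycusis (SE 0.12) and 0.03 for severe presbycusis (SE 0.14, 95% interval -0.27 to 0.32).

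Cdh1, the E-cadherin of epithelia, had low intensities with medians of 79.6 in young controls, 59.0 in middle-aged mice, 79.6 in mild and 68.9 in severe presbycusis. Its difference between mild presbycusis and middle-aged mice was 0.40 (SE 0.16, adjusted p 0.9999, in 8 of 9 mice), the only one of a type I cadherin with an unadjusted p under 0.05. Cdh4 is the R-cadherin of brain and retina. Cdh4 differed from young controls by 0.20 in mild presbycusis (SE 0.16) and -0.17 in severe presbycusis (SE 0.19). Cdh15, the M-cadherin of muscle and cerebellar granule cells, differed by -0.05 (SE 0.16) and -0.04 (SE 0.19) in the same comparisons. The intervals of both genes included 0 in both comparisons.

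Of the 8 type II cadherins, 4 had an unadjusted limma p under 0.05 in severe presbycusis against young controls, and 0 passed the adjusted test. Cdh9 and Cdh10 are neighbours on chromosome 15, with no other protein-coding gene between them in the RefSeq annotation, and they showed the same direction in every older group. Cdh9 takes part in forming specific synapses in the rodent hippocampus and the mouse retina. Its lowest, median and highest intensities were 201, 669 and 1071 in young controls, 349, 1026 and 2168 in middle-aged mice, and 813, 924 and 1489 in mild presbycusis. The mice with severe presbycusis had 737, 887, 937, 1071 and 1125. The older groups had higher medians but overlapped with the young controls. Relative to young controls the differences were 0.69 in middle-aged mice (SE 0.23, adjusted p 0.925, above the young mean in 15 of 17 mice), 0.66 in mild presbycusis (SE 0.26, adjusted p 0.622, 9 of 9) and 0.66 in severe presbycusis (SE 0.31, adjusted p 0.616, 5 of 5).

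Cdh10 had lowest, median and highest intensities of 636, 1664 and 2596 in young controls, 1621, 1962 and 2468 in middle-aged mice, and 1639, 2083 and 2474 in mild presbycusis. In severe presbycusis the 5 values were 1805, 2122, 2198, 2264 and 2265. The older groups lay in a narrow band that the widely spread young controls enclosed. The differences were 0.34 (SE 0.13, adjusted p 0.927, 17 of 17 mice), 0.41 (SE 0.15, adjusted p 0.547, 9 of 9) and 0.47 (SE 0.17, adjusted p 0.399, 5 of 5) in middle-aged, mild and severe mice.

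Young replicate 2, the array with the highest cerebellar marker sum, was the lowest young value of both genes. Relative to the mean of the other young controls it lay at -1.76 in Cdh9 and at -1.46 in Cdh10 on the log2 scale, where the SD of the other young mice was 0.43 and 0.35. Without this array the differences of Cdh10 from young controls were 0.15 in middle-aged mice, 0.23 in mild presbycusis (limma adjusted p 0.833) and 0.26 in severe presbycusis (adjusted p 0.784). Those of Cdh9 were 0.47 (adjusted p 0.9997), 0.45 and 0.42 in the same order. Without all 3 arrays with cerebellar signal they were 0.18, 0.23 and 0.27 for Cdh10 and 0.33, 0.45 and 0.37 for Cdh9. The direction held for both genes and the sizes were smaller. Middle-aged replicates 7 and 8, the other arrays with cerebellar signal, did not share the low Cdh9 value. They lay at 0.72 and 1.23 in Cdh9 relative to the mean of the remaining middle-aged mice (SD 0.58). In Cdh10 they lay at -0.29 and -0.05 (SD 0.17).

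Because the genes are neighbours with differences of the same sign, their start regions are shown, each from 250 bases before the transcription start to 50 after it (RefSeq, GRCm38.p6, plus strand). The Cdh9 window is chr15:16728665-16728964 and the Cdh10 window is chr15:18820079-18820378. Neither holds a match on either strand to the motifs searched, so nothing is in capitals. These were the CRE letters TGACGTCA, found in 1.79% of the 32851 promoter windows of the reference, its half-site TGACG (20.8%), the GC box GGGCGG (35.7%), the TATA box TATAAA (13.6%) and the E box CACGTG (7.15%). Every CRE match also counts as a half-site match. The windows differ in base composition, with 48.7% G or C and 8 CpG in Cdh9 and 37.7% and 2 CpG in Cdh10. The reference holds such a window for 14 of the 46 members.
Cdh9: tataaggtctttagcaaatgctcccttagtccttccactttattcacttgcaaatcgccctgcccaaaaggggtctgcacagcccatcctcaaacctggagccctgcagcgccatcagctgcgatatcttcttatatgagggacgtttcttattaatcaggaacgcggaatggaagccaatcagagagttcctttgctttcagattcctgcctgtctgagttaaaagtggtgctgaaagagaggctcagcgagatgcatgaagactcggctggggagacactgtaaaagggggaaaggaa
Cdh10: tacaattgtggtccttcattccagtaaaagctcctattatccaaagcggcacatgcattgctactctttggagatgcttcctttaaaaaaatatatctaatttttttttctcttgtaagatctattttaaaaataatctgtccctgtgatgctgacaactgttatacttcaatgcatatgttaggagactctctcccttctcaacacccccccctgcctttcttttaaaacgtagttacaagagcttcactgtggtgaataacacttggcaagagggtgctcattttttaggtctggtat

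Cdh11, the OB-cadherin of mesenchymal cells and of developing brain, was the member with the clearest separation in severe presbycusis. Its intensities there were 312, 339.5, 353, 362 and 389. The lowest, median and highest were 156, 233 and 305 in young controls, 152, 257 and 594 in middle-aged mice, and 169, 335 and 387 in mild presbycusis. Every mouse with severe presbycusis lay above every young control. A lack of overlap between these groups, in either direction, held for Cdh11 alone among the 46 members and for 0.398% of all probe sets. The difference from young controls was 0.59 in severe presbycusis (SE 0.20, adjusted p 0.315) and 0.34 in mild presbycusis (SE 0.17, adjusted p 0.755). Young replicate 2 was the lowest young value, at -0.58 from the mean of the other young controls (SD 0.21). Without it the severe difference was 0.51 (limma adjusted p 0.585), and without all 3 arrays with cerebellar signal 0.54 (adjusted p 0.511). The 9 meningeal and fibroblast marker genes, which mesenchymal cells express, had a median difference of -0.11 in severe presbycusis and -0.21 in mild presbycusis, with 0 of 9 passing. Their summed intensity had a range of 1812 to 3915 in severe presbycusis, against 1755 to 4684 in young controls.

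Cdh22, a type II cadherin of brain and pituitary, had the smallest adjusted p of the family in severe presbycusis against young controls. The 5 severe values were 242, 328, 329.7, 336 and 351. The lowest, median and highest were 341, 425 and 463 in young controls, 217, 373 and 473 in middle-aged mice, and 287, 344 and 469 in mild presbycusis. All 5 severe mice were below the young mean, and 1 of them reached the range of the young controls. The differences were -0.15 in middle-aged mice (SE 0.09), -0.22 in mild presbycusis (SE 0.10, adjusted p 0.746, 8 of 9 mice) and -0.37 in severe presbycusis (SE 0.12, adjusted p 0.297, 5 of 5).

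The other type II cadherins had no unadjusted limma p under 0.05 against young controls. Cdh5 is the VE-cadherin of endothelial junctions. It differed by -0.04 in mild presbycusis (SE 0.18) and -0.26 in severe presbycusis (SE 0.21), where its values had a range of 77.8 to 234 against 111 to 254 in young controls. The lowest of these was severe replicate 3, without which the severe difference was -0.05 from young controls and -0.11 from middle-aged mice, where it was -0.33 with all 5 mice. A second, dimmer Cdh5 probe set gave 0.21 in severe presbycusis and -0.26 in mild presbycusis, each against young controls. The 8 endothelial marker genes had a median difference of -0.11 in severe presbycusis with 0 passing. Cdh8, which marks and links particular neuron sets in mouse, differed by -0.28 (SE 0.20) in mild and -0.18 (SE 0.24) in severe presbycusis. Cdh20 differed by 0.45 between mild presbycusis and middle-aged mice (SE 0.19, adjusted p 0.9999, 8 of 9 mice), with medians of 72.9 array units in mild presbycusis and 47.3 in middle-aged mice.

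**Figure D2:**
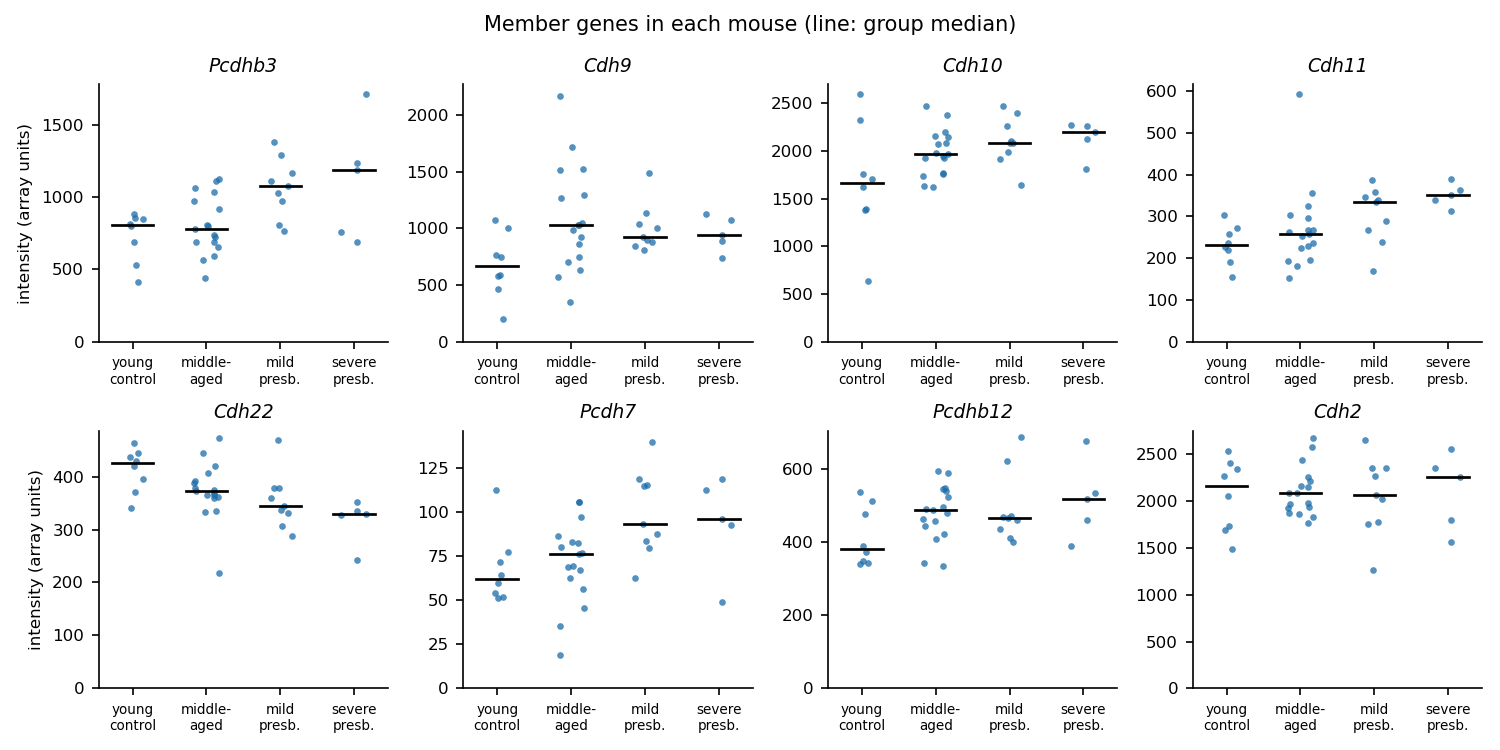
Intensity of 8 members in each mouse by hearing group (points, with group medians as lines; linear axes from 0). Cdh11 in severe presbycusis lies wholly above the young controls, 1 young control is far below the others in Cdh10, and the 4 groups overlap in Cdh2.

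The 4 atypical cadherins lack the catenin-binding tail of the classical ones. Cdh23 forms the upper part of the tip link that opens hair cell channels, and its loss deafens mice. In the colliculus its median intensities were 85.4 in young controls, 115 in middle-aged mice, 91.6 in mild and 115 in severe presbycusis. Set against young controls it differed by 0.25 (SE 0.18), 0.20 (SE 0.20) and 0.20 (SE 0.24) in that order, with adjusted p from 0.903 to 0.995. A second, dimmer Cdh23 probe set gave 0.22, 0.13 and -0.26 in the same order. Between severe presbycusis and middle-aged mice that probe set gave -0.47 (limma adjusted p 0.697), against -0.05 for the first. Cdh13, the membrane-anchored T-cadherin that binds adiponectin, differed by 0.18 (SE 0.18), 0.08 (SE 0.20) and -0.07 (SE 0.24). Its further, dimmer probe sets gave -0.13 and -0.16 in middle-aged mice, -0.10 and -0.11 in mild presbycusis and -0.14 and -0.33 in severe presbycusis. Cdh16, known from kidney and named here after its values were seen, was the 1 atypical cadherin with an unadjusted p under 0.05. It differed by 0.83 in severe presbycusis (SE 0.38, adjusted p 0.597), where the 5 values scattered over 34.6, 43.9, 115, 192 and 208 and only 3 were above the young mean.

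Of the 8 non-clustered protocadherins, Pcdh8 was the 1 member of the whole family with a called difference in the fits with both sexes, and it was a difference between the sexes in how mild presbycusis compared with young controls. Pcdh8 encodes an activity-regulated protocadherin, and in rat hippocampal neurons its protein, arcadlin, binds N-cadherin and draws it in from the synapse. In females of the mild group the intensities were 779, 892, 938 and 1115, against 267, 289, 554 and 576 in young females. In males of the mild group they were 451, 542, 707, 887 and 887, against 741, 778, 795 and 1011 in young males. Every mild female was above every young female, whereas mild and young males overlapped.

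The mild minus young difference of Pcdh8 was -0.29 in males and 1.19 in females. The male difference minus the female difference was -1.48 (SE 0.30, limma adjusted p 0.00849). This interaction called 1 of the 46 members and 1.23% of all probe sets. It had an unadjusted p under 0.05 in 9 members and in 15.4% of all probe sets, so sex differences of this kind were frequent on the array. Without young replicate 2, a female with 267 array units, the value was -1.29 (adjusted p 0.0242). Pcdh8 kept its call in all 33 alternatives that could be fitted, with values from -1.65 to -1.29.

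The sexes were farthest apart among the young controls. Male minus female was 1.03 in young controls, 0.20 in middle-aged mice and -0.45 in mild presbycusis. Young males and young females did not overlap, while in the middle-aged group the males had a range of 590.4 to 1063 and the females of 504 to 869.7. The same contrast for middle-aged mice against young controls was -0.83 (SE 0.27, adjusted p 0.481). It called 0 of 46 members and 0% of all probe sets, with 4 members, which are 8.70% of the family, and 7.27% of all probe sets at an unadjusted limma p under 0.05. The single male with severe presbycusis, at 688 array units, allows no such test there.

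Among females fitted alone, Pcdh8 rose 2.28-fold in mild presbycusis (log2 difference 1.19, SE 0.22, adjusted p 0.00575, n = 4 and 4). It also rose in severe presbycusis, with 600.1, 651, 845 and 932 array units against the young values above (0.88, SE 0.22, adjusted p 0.0489). Middle-aged females had a difference of 0.72 (SE 0.18, adjusted p 0.193). Males alone had -0.29 in mild presbycusis (SE 0.20, adjusted p 0.747). With both sexes together the mild difference was 0.41 (SE 0.19, adjusted p 0.703), the severe one 0.40 and the middle-aged one 0.31. Without young replicate 2 these were 0.27 (adjusted p 0.8998), 0.24 and 0.16, and without all 3 arrays with cerebellar signal 0.27, 0.25 and 0.18. Without young replicate 2 the female call in mild presbycusis remained at 1.00 (adjusted p 0.0233), and that in severe presbycusis was lost. In all, 2 of the 46 members passed in females in the mild comparison, and 2.05% of all probe sets did. The severe comparison in females also called 2 members and 1.09% of all probe sets, and the F-test in females called 2 members and 1.34%.

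The start region of Pcdh8 is shown as that of the 1 member called with both sexes (RefSeq, GRCm38.p6, chr14:79771263-79771562, minus strand, 250 bases before to 50 after the start). Capitals mark a match to TATAAA whose first base lies at -30. The TATA box letters occur in 2 of the 14 member windows and the CRE letters TGACGTCA in 0 of 14. The Pcdh8 window holds 54.3% G or C and 14 CpG.
Pcdh8: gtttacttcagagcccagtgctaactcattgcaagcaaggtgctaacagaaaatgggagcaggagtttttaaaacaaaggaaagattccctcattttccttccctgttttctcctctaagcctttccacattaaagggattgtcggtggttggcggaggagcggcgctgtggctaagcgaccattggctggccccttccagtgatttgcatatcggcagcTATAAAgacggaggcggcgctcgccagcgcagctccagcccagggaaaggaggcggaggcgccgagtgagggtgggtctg

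The second gene with a female call was Cdh11. Its intensities in mild females were 339.8, 347, 359 and 387 and in severe females 339.5, 353, 362 and 389, against 156, 220, 228 and 259 in young females. Middle-aged females had a range of 181 to 325. Both presbycusis groups of females were above all young and all middle-aged females. Cdh11 rose by 0.71 in mild females (SE 0.17, limma adjusted p 0.0270) and by 0.72 in severe females (SE 0.17, adjusted p 0.0347). Without young replicate 2 the severe difference was 0.58 (adjusted p 0.143), and Cdh11 no longer passed in either comparison with young females. Mild males had 169, 239, 267, 289 and 335, against 190.4, 237, 271 and 305 in young males, a difference of 0.04 (SE 0.27). The male difference minus the female one was -0.67 (SE 0.32, adjusted p 0.299), which did not pass the test of a difference between the sexes.

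Cdh2 and the beta protocadherin Pcdhb20 had the sign pattern of Pcdh8 but missed the threshold. Cdh2 intensities in mild males were 1262, 1761, 2020.4, 2065 and 2357, against 2269, 2346, 2412 and 2540.45 in young males. In mild females they were 1777, 2267, 2355 and 2654, against 1494, 1694, 1737 and 2052 in young females. Every mild male but 1 lay below all young males, and every mild female but 1 above all young females. The mild minus young difference was -0.36 in males and 0.37 in females, and the interaction was -0.73 (SE 0.21, adjusted p 0.0621). A second, dimmer Cdh2 probe set gave -0.27 (adjusted p 0.583). The Pcdhb20 interaction was -0.77 (SE 0.22, adjusted p 0.0597), with -0.40 in males and 0.37 in females. Young replicate 2 was the lowest young female in both Cdh2 (1494) and Pcdhb20 (627), and their interactions without it are not reported here. Pcdhb18 had the opposite sign at 1.42 (SE 0.46, adjusted p 0.104), on a dim probe set where young replicate 2 was the highest young value.

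**Figure D3:**
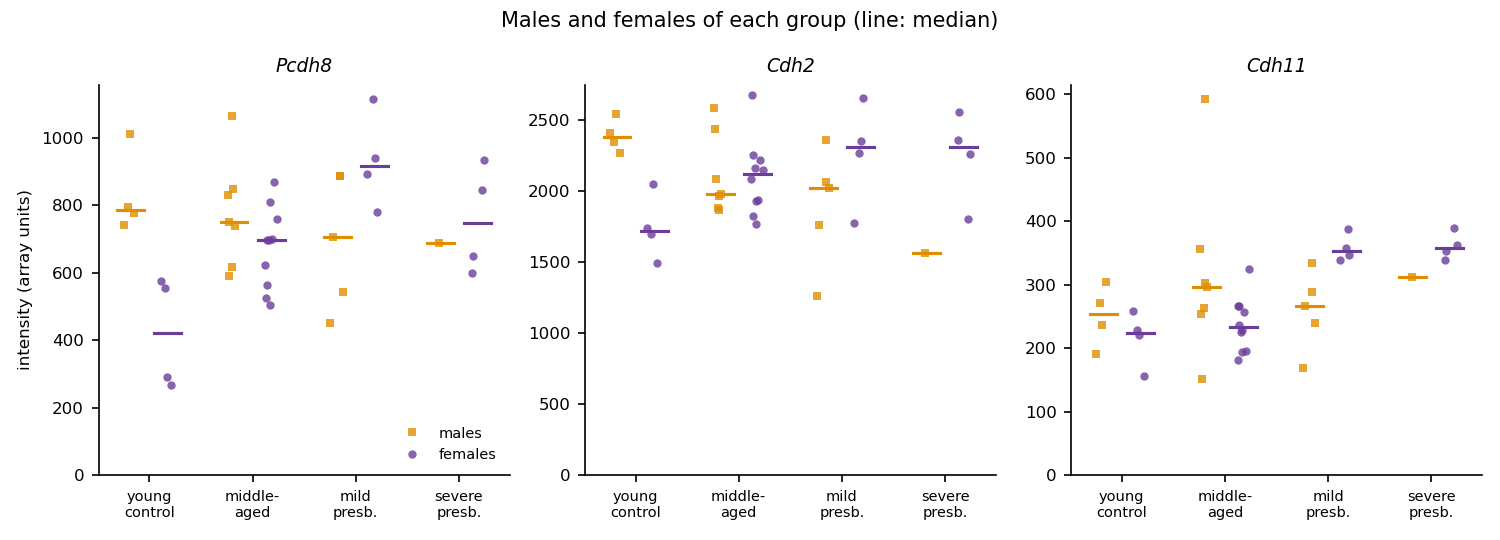
Intensity of Pcdh8, Cdh2 and Cdh11 in males (squares) and females (circles) of each hearing group, with medians as lines and linear axes from 0. Young females are below young males in Pcdh8 and Cdh2, and females with mild or severe presbycusis are above young females in Pcdh8 and Cdh11.

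Averaged over groups, male minus female called 0 of 46 members, with 0.0486% of all probe sets called. Cdh4 was the 1 member with an unadjusted limma p under 0.05 (-0.24, SE 0.11, adjusted p 0.998).

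The other non-clustered protocadherins showed no called difference. Pcdh7, which is known as BH-protocadherin, is a low-intensity gene with medians of 62.0 in young controls, 76.5 in middle-aged mice, 93.4 in mild and 96.2 in severe presbycusis. Its differences from young controls were 0.47 in mild presbycusis (SE 0.20, adjusted p 0.674, 8 of 9 mice) and 0.37 in severe presbycusis (SE 0.24, adjusted p 0.784, 4 of 5). Pcdh10, which guides axons and takes part in synapse elimination in mouse neurons, differed by 0.04 (SE 0.26) and 0.32 (SE 0.31). The severe difference of Pcdh10 was 0.15 without young replicate 2 (adjusted p 0.980), 0.17 without all 3 arrays with cerebellar signal and 0.19 without severe replicate 3. Pcdh15, the lower part of the hair cell tip link, differed by 0.17 (SE 0.14) and -0.02 (SE 0.16), and Pcdh20 by -0.00 (SE 0.18) and 0.18 (SE 0.22). Pcdh12, an endothelial protocadherin, was near the floor of the array at 4.93 to 7.62 in severe presbycusis, against 5.23 to 13.99 in mild presbycusis. It differed between these groups by -0.21 (SE 0.10, adjusted p 0.9995).

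The 21 beta protocadherins are single-exon genes that lie side by side and are alike in sequence, so a probe set may also report on a close relative. Their median difference from young controls was -0.00 in middle-aged mice, 0.14 in mild presbycusis and 0.02 in severe presbycusis, with 10, 15 and 11 of 21 above 0. Of the 12 brighter genes, 9 were above 0 in mild presbycusis (median 0.13) and 9 in severe presbycusis (median 0.20). Among all probe sets of that brightness, 57.6% and 46.1% were above 0 in these comparisons. Of the 9 dim genes, 6 and 2 were above 0. The brighter genes thus lay mostly above 0 in both presbycusis groups, but none of the 21 passed the test. Both groups were set against the same young controls. Young replicate 2 was below the mean of the other young controls in all the brighter genes but Pcdhb1, Pcdhb8 and Pcdhb19. It lay lowest in Pcdhb17 (-0.97), Pcdhb3 (-0.87) and Pcdhb20 (-0.65). Without it their mild differences were 0.03, 0.44 and -0.10, against 0.14, 0.56 and -0.03 with it. The brighter genes above 0 were not counted without this array.

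Pcdhb3 had the smallest p of the family across the 4 groups (limma F-test, adjusted p 0.326). Its lowest, median and highest intensities were 411, 808 and 885 in young controls, 443, 777 and 1127 in middle-aged mice, and 764, 1074 and 1381 in mild presbycusis. The mice with severe presbycusis had 687, 759.9, 1184, 1232 and 1712. Of the 5 severe mice, 3 lay above all young controls and the other 2 within their range. The differences from young controls were 0.13 in middle-aged mice (SE 0.15), 0.56 in mild presbycusis (SE 0.17, adjusted p 0.329, 9 of 9 mice) and 0.52 in severe presbycusis (SE 0.21, adjusted p 0.474, 4 of 5). Mild presbycusis differed from middle-aged mice by 0.44 (SE 0.15, adjusted p 0.754, 8 of 9 mice). Young replicate 2, with the highest cerebellar marker sum, lay at -0.87 from the mean of the other young controls (SD 0.25). Without it the difference from young controls was 0.44 in mild presbycusis (limma adjusted p 0.703) and -0.00 in middle-aged mice. Without all 3 arrays with cerebellar signal these were 0.44 (adjusted p 0.691) and -0.06.

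Pcdhb12 had medians of 381 in young controls, 489 in middle-aged mice, 466 in mild and 519.8 in severe presbycusis. It differed from young controls by 0.21 (SE 0.11), 0.24 (SE 0.12) and 0.31 (SE 0.15, adjusted p 0.632) in that order. Pcdhb19 had its largest difference in middle-aged mice, at 0.32 (SE 0.13, adjusted p 0.936, 15 of 17 mice). These 2 genes were above 0 in each older group.

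A pair of dim genes had differences of opposite sign in mild presbycusis. Pcdhb13 differed from young controls by -0.97 in mild presbycusis (SE 0.34, adjusted p 0.532, 8 of 9 mice) and by -0.07 in severe presbycusis (SE 0.41). Its lowest, median and highest intensities were 6.61, 72.5 and 216 in young controls, 8.16, 47.1 and 161 in middle-aged mice, and 5.84, 26.6 and 71.3 in mild presbycusis. The severe mice had 32.4, 41.8, 70.2, 90.4 and 101. Middle-aged mice differed from young controls by -0.62 (SE 0.30), and mild presbycusis from middle-aged mice by -0.35 (SE 0.29). Pcdhb14 differed by 0.58 in mild (SE 0.26, adjusted p 0.700) and -0.05 in severe presbycusis (SE 0.31), with medians of 34.1 in mild and 10.1 in severe presbycusis, against 15.5 in young controls. In middle-aged mice its lowest, median and highest intensities were 5.14, 12.7 and 48.3, and mild presbycusis differed from them by 0.60 (SE 0.22, adjusted p 0.9999). The Pcdhb14 probe set is of a type whose probes are shared with other transcripts. Severe and mild presbycusis differed by 0.90 in Pcdhb13 (SE 0.40) and by -0.63 in Pcdhb14 (SE 0.31), both at an adjusted p of 0.9995. A second Pcdhb14 probe set, about as dim, gave 0.25 in mild and 0.59 in severe presbycusis against young controls, and 0.35 between severe and mild presbycusis, opposite in sign to the first. The ranges of all 4 groups overlapped in Pcdhb13 and in the first Pcdhb14 probe set.

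Pcdhb9, the beta protocadherin that is not a member, differed from young controls by 0.58 in middle-aged mice, 1.02 in mild and 1.08 in severe presbycusis (limma adjusted p 0.00730, 1.04e-07 and 6.47e-07). None of its 21 measured relatives passed, and the largest difference among them in severe presbycusis was 0.60, in Pcdhb18.

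**Figure D4:**
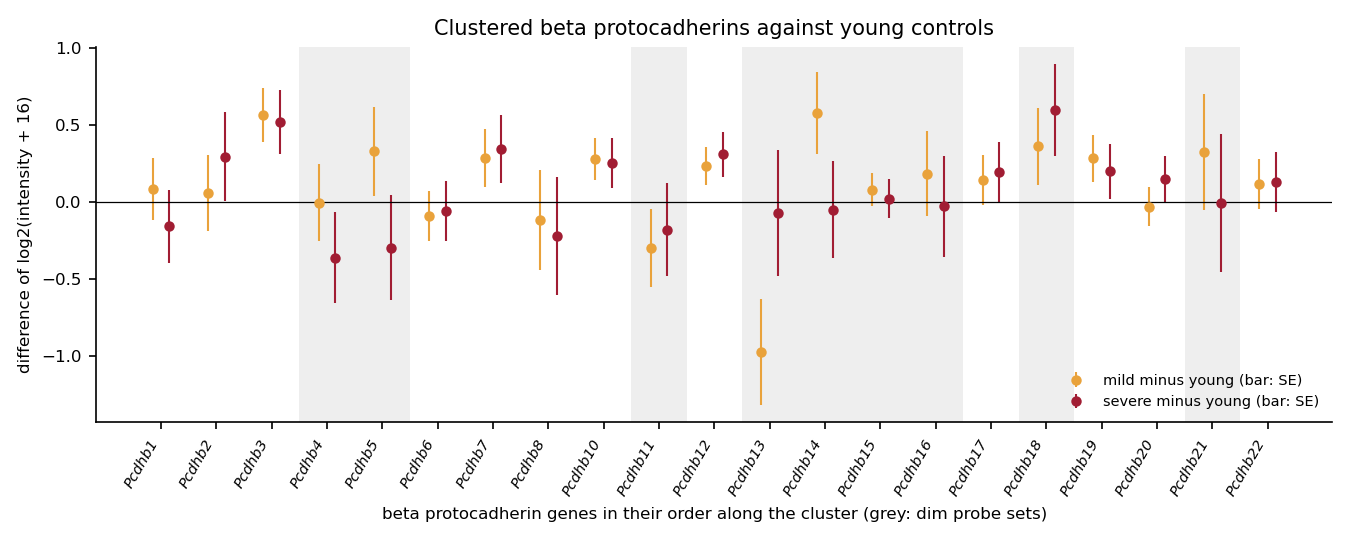
Differences of the 21 beta protocadherins from young controls in mild and severe presbycusis (log2 scale, bars are SE), in their order along the cluster, with dim probe sets shaded. Pcdhb3 has the largest positive difference of the unshaded genes in both groups, and Pcdhb13 is lowest in mild presbycusis only.

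Further probe sets of 10 genes were 12 in number, of which 10 were dim and 0 passed in any group comparison. They had the sign of the brightest probe set in 8 of 12 cases in mild presbycusis and in 7 of 12 in severe presbycusis, each against young controls. The dim copies thus gave little further information on direction.

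Genes that work with cadherins were likewise below the threshold. Of 14 catenins and cytoplasmic partners 11 were measured, with a median of 0.06 in severe presbycusis against young controls, and 0 passed in either direction in any pairwise limma comparison. Ctnna1, the alpha-catenin that links cadherins to actin, differed by 0.44 (SE 0.15, adjusted p 0.293), Arvcf by -0.03 and Jup by -0.44 in severe presbycusis. Of 23 larger cadherins outside the rule, 13 were measured with a median of -0.05, and of 14 genes of cadherin cleavage and protocadherin signalling 12 with a median of -0.05. Abi1, a part of the actin-regulating WAVE complex that protocadherins recruit, differed by 0.38 in mild (SE 0.12, adjusted p 0.381) and 0.42 in severe presbycusis (SE 0.14, adjusted p 0.313). Other adhesion families had 12 of 20 genes measured and a median of -0.12, and the neuronal adhesion molecule Nrcam differed by 0.25 (SE 0.10).

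Of the cell type markers, microglial genes moved with hearing group. In severe presbycusis 8 of 9 were above 0 against young controls and 6 passed as higher, with a median of 0.81. In mild presbycusis 7 of 9 were above 0 and 4 passed as higher, with a median of 0.56. The astrocyte gene Gfap rose by 1.51 in severe presbycusis (limma adjusted p 0.00793) as the 1 of 6 astrocyte markers to pass. The summed microglial intensity had a range of 11490 to 16894 in severe presbycusis, against 6186 to 8814 in young controls. Neuron, oligodendrocyte, endothelial, meningeal, choroid plexus and cerebellar lists had 0 called genes in these comparisons. The part of glia in the cadherin differences was not tested.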

How the data were processed

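Biotin-labelled RNA of 39 inferior colliculi was hybridized to MOE430A arrays, per the labels and the series' design text, which also give sex and hearing group. The deposited values are intensities on a linear scale, made by the authors with an algorithm not given in the sources used here, and the trimmed means of the arrays lie between 500.101 and 500.198 when 2% is cut at each end. Another 288 columns of per-sample values, for GABA genes, were not used. The number of arrays limits the precision.

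Symbols came from the platform annotation, and all 46 were found in the reference gene table. Members and gene lists were chosen with earlier results of these data known. The 64 array controls among 22690 probe sets were dropped. With limma 3.58.1 (R 4.3.3), group and sex were fitted to log2(intensity + 16) of all 39 arrays, with a variance trend, 2-sided tests and Benjamini-Hochberg adjustment over 22626 probe sets (threshold 0.05). Mice on one side are those of the first group beyond the mean of the second. The sex by group interaction used 8 sex and group means, male minus female, and was not tested for severe presbycusis, which has 1 male. Fits were tested on simulated data. Nothing in the labels names litters, and each mouse is 1 replicate.

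Members named with values were Pcdh8 as the called gene, the 12 with the smallest F-test p, the 3 with the smallest p in each of the 6 pairwise comparisons, and genes picked for their role. Cdh6, Cdh16, Pcdhb18 and Pcdhb20 were named after their values were seen. Partner genes were those with the smallest F-test p. Alternatives covered normalization, pseudocount (1 and 64), dim probe sets, variance fit, covariates, each sex, the probe set choice and leaving out arrays. Added after seeing the data were a covariate for a suffix in 8 array names, leaving out middle-aged replicate 4 or each mild mouse, and females without young replicate 2.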

Additional observations from a re-analysis of the deposited data

Results flagged for a closer look

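Pcdh8 was flagged because the difference between mild presbycusis and young controls differed between the sexes: the male difference minus the female one was -1.48 (limma adjusted p 0.00849). Cdh2 was flagged because every mild male lay below the mean of the young males and every mild female above that of the young females, with a value of -0.73 for the male difference minus the female one (limma adjusted p 0.0621).

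Single mice far from the rest of their group were found in 13 of 138 groups of a gene examined, where chance flags about 5%. The groups examined were the young controls and the mild and severe groups, and the middle-aged mice were not screened. In Cdh8, for example, middle-aged replicate 15 lay at 9.48 and the next highest of its group at 8.22. Values here are log2(intensity + 16). The lowest of the young controls stood apart in Cdh10 (young replicate 2, 9.35), in Pcdhb13 (young replicate 1, 4.50) and in Cdh6 (young replicate 8, 6.34), and the highest in Pcdh20 (young replicate 4, 9.56). In mild presbycusis replicate 7 was lowest in Pcdhb11 (5.02) and Cdh15 (6.75), replicate 8 lowest in Pcdhb20 (9.26) and replicate 6 highest in Pcdh1 (7.52). In severe presbycusis replicate 1 was highest in Cdh17 (7.46) and Pcdhb14 (6.21), replicate 3 lowest in Cdh10 (10.83) and Cdh22 (8.01), and replicate 5 lowest in Cdh6 (6.15). Without severe replicate 3 the Cdh22 difference from young controls was -0.28 (limma adjusted p 0.595).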

How the results depend on the processing

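No paired analysis was possible because every mouse has its own number and no group shares one with another. In all 6 pairwise comparisons the count of members called stayed at 0 in every alternative that kept both sexes. Females alone gave 2 called members (Cdh11 and Pcdh8) in mild presbycusis, 2 in severe presbycusis and 2 in the F-test. Leaving young replicate 2 out of the females gave 1 for mild presbycusis against young controls (Pcdh8), 0 for severe presbycusis against young controls, 1 each for mild and severe presbycusis against middle-aged mice (Cdh11) and 1 in the F-test (Cdh11). The sex by group interaction in mild presbycusis called 3 members without the 40% dimmest probe sets (Cdh2, Pcdh8 and Pcdhb20, with 455 probe sets called in all against 279) and between 1 and 3 with 1 mouse left out. It called 3 without young replicate 1 or mild replicate 3, and 2 without young replicate 6 or 7 or mild replicate 1 or 9, and Pcdh8 was among them each time. Signs reversed for Pcdh8 in males alone (mild against young, -0.29), Cdh8 in males alone (mild against young, 0.10) and Cdh23 in males alone (middle-aged against young, -0.032). For Cdh2 in mild presbycusis against middle-aged mice the sign turned with array weights (0.00426), in females alone with or without young replicate 2 (0.10 in both) and without mild replicate 8 (0.028), over a range of -0.11 to 0.028 with 1 mouse left out and both sexes kept. None of these was called. The causes were not tested.

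Counts over all probe sets moved more: from 7 to 464 for mild presbycusis and from 43 to 247 for severe presbycusis against young controls, from 3 to 104 and from 68 to 130 for mild and severe presbycusis against middle-aged mice, and from 0 to 10 for middle-aged mice against young controls. They moved from 0 to 11 for severe against mild presbycusis, 72 to 304 in the F-test, 6 to 13 for sex and 95 to 517 for the interaction in mild presbycusis. With 1 mouse left out, the interaction count over all probe sets was lowest without mild replicate 8 (144) and highest without mild replicate 9 (517), and mild presbycusis against young controls had 24 without young replicate 2 or 3. Males alone were not run for severe presbycusis, and the interaction was not run with 1 sex, array weights, added covariates or 2 groups. In the 20 dim genes, signal near background limits what can be seen.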
